A study of Mus musculus with 8 samples.

Results

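Mouse chromosomes 1 and 3 were followed across 8 liver tumors as a pair of large chromosomes that changed by small amounts. All probes that are not controls and whose position on mm9 lies on chromosome 1 or chromosome 3 were taken, 21956 of 170305 probes in all. Chromosome 1 held 12493 of them, between positions 3017293 and 197188537, at a median spacing of 11.3 kb. Chromosome 3 held 9463, between positions 3000029 and 159598830, at a median spacing of 11.7 kb. Tumor 3 lay below the reference along both chromosomes, and it was the single tumor in which a whole change of either was called at a log2 size of 0.2. Tumor 4 lay above the reference on chromosome 1 and below it on chromosome 3. Both shifts were smaller than those of tumor 3 and were called at 0.1 and not at 0.2. Tumor 2 lay slightly below the reference on chromosome 3, and the remaining tumors stayed within 0.1 of it on both chromosomes.

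Each tumor came from a different male FAH-/- mouse, and its DNA, labelled with Cy5, was hybridized together with Cy3-labelled liver DNA pooled from 6 male FAH+/+ littermates. FAH is the enzyme fumarylacetoacetate hydrolase, which completes tyrosine breakdown, and NTBC (nitisinone) is a drug that blocks that breakdown upstream. The mice drank water with NTBC, normally at 7.5 mg/L, and then received 2.5% of that dose over 6 to 12 months. For labelling, 1.5 µg of DNA was used. The 8 tumors form 1 group and are numbered in order of deposition. The reference is 1 pool with no array of its own, so the spread between control mice enters no error, and liver tissue outside the tumor of the same mouse was not analysed here. The dyes were not swapped.

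In array comparative genomic hybridization, tumor and reference DNA compete for the same probes, so that the log2 ratio of the colours follows the relative amount of DNA. Liver cells often hold more than a single pair of each chromosome: polyploid hepatocytes are common in adult mice, and chromosome missegregation is known in such cells. A tumor sample also holds vessels, immune cells and remaining liver, whose unchanged DNA pulls every ratio towards 0. In such a bulk sample a change in few cells and a smaller relative change in every cell cannot be told apart.

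Chromosomes 1 and 3 carry genes of growth control and of liver metabolism. Of the lists used here, 23 of 23 genes were placed on chromosome 1 and 25 of 25 on chromosome 3 by the RefSeq table of GRCm38.p6, by chromosome name only, since its positions are on another build than the arrays. On chromosome 1 these include Mdm4, an inhibitor of p53, Bcl2, which blocks apoptosis, Cdc73, a tumor suppressor of the PAF1 complex, and Casp8, a caspase that starts apoptosis. Its liver genes include Cps1, the enzyme that starts the urea cycle, Prox1 and Nr5a2, transcription factors of hepatocytes, and Ugt1a1, which conjugates bilirubin. On chromosome 3 they include Nras, a small GTPase of growth signalling, Pik3ca, the catalytic subunit of a lipid kinase, Fbxw7, which marks cyclin E and Myc for destruction, and Mcl1, a survival factor. Its liver genes include Fga, Fgb and Fgg, the chains of fibrinogen, Adh1 and Adh4, alcohol dehydrogenases, and Uox, the urate oxidase of mice. The table lists 1204 protein-coding genes on chromosome 1 and 983 on chromosome 3, of 21627 on the autosomes and X.

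The level of a chromosome was the mean log2 ratio of its 1 Mb bins, 192 on chromosome 1 and 157 on chromosome 3, after the commonest bin level over the autosomes of the same tumor had been set to 0. Probe by probe the arrays resembled each other, and any pair of them correlated at 0.669 to 0.913. Levels are given with this shared probe pattern kept. Segments are given after a copy of the pattern built from the other 7 arrays had been subtracted, which brought the correlations between arrays to between -0.30 and 0.37. Noise between neighbouring probes was 0.62 to 0.65 in tumors 1 to 6 and 0.39 in tumors 7 and 8 with the pattern kept, and it was 0.15 to 0.22 in all tumors with it subtracted. By the scan date in the file headers, tumors 1 to 4 form 1 scan group and tumors 5 to 8 the other. The number of arrays limits the precision, and the p-values below measure the spread between these 8 tumors.

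On chromosome 1 the level was 0.011 in tumor 1, 0.055 in tumor 2, -0.31 in tumor 3, 0.15 in tumor 4, 0.0072 in tumor 5, 0.0084 in tumor 6, 0.0042 in tumor 7 and -0.062 in tumor 8. Tumor 3 was the lowest and tumor 4 the highest, and 4 tumors (1, 5, 6 and 7) lay within 0.02 of the reference. On chromosome 3 the level was 0.0012 in tumor 1, -0.098 in tumor 2, -0.33 in tumor 3, -0.17 in tumor 4, -0.012 in tumor 5, 0.021 in tumor 6, 0.022 in tumor 7 and -0.039 in tumor 8. Here tumor 3 was again the lowest, followed by tumors 4 and 2, and the highest value was the 0.022 of tumor 7. Odd-numbered and even-numbered probes of a chromosome differed in their mean by 0.00066 to 0.0097 with the pattern subtracted. That is smaller than each of the shallow shifts in tumors 2, 3 and 4. Both sets of probes come from the same array and share its zero, so the comparison covers the noise of single probes only. The wider scatter between the autosomes of a tumor is given further below.

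**Figure D1:**
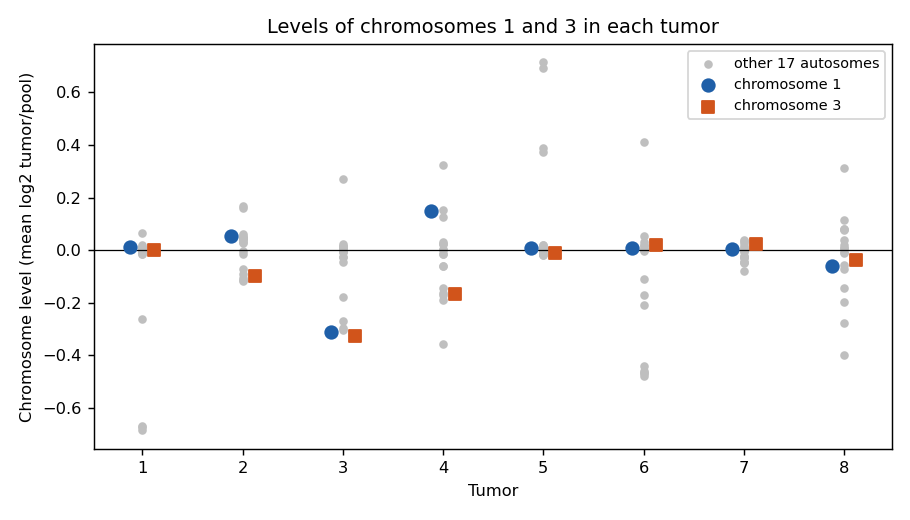
Level of chromosome 1 (circles), chromosome 3 (squares) and the other 17 autosomes (small grey points) in each of the 8 tumors, as the mean log2 ratio of tumor over pool with the commonest autosomal level at 0. Both chromosomes lie near -0.3 in tumor 3, on opposite sides of 0 in tumor 4 (0.15 and -0.17), and close to 0 in tumors 1, 5, 6 and 7.

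Over the 8 tumors the mean level of chromosome 1 was -0.017 ± 0.13 (SD, n = 8). It did not differ from 0 (two-sided exact sign-flip permutation test, p = 0.859, adjusted p = 0.859 over 20 chromosomes, below 0 in 2 of 8 tumors). The mean level of chromosome 3 was -0.075 ± 0.12 (SD, n = 8), and it did not pass either (exact sign-flip permutation p = 0.125, adjusted p = 0.3125, below 0 in 5 of 8 tumors). The smallest p this test can give with 8 tumors is 0.0078125. Of the 20 chromosomes 0 passed the adjusted threshold, which is 0% of those tested, and 6 (4, 8, 12, 13, 15 and 16) had an unadjusted p under 0.05. The spread over tumors is thus larger than the mean on both chromosomes.

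The tumors with shifts of 0.09 or more shared a scan group. The mean level of chromosome 3 was -0.15 ± 0.14 (SD, n = 4) in the scan group of tumors 1 to 4 and -0.0019 ± 0.029 (SD, n = 4) in the other (exact permutation test over 70 splits, p = 0.0857, smallest possible p 0.0286). For chromosome 1 the means were -0.024 ± 0.20 and -0.010 ± 0.034 (SD, n = 4 each, exact permutation p = 1). Each tumor was in 1 scan group only, so a part of the scan group in these values was not tested.

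Whole-chromosome changes were called from segments, where at least 80% of the probed length lay at a mean log2 ratio of 0.2 or more in size. Chromosome 1 and chromosome 3 were called lost in tumor 3 and in no other tumor, and no tumor gained either. These are 2 losses of 16 chromosome-by-tumor pairs, beside 17 of 160 over all chromosomes (10.6%), and 0 gains beside 8 of 160 (5%). At a threshold of 0.1 the loss of chromosome 3 in tumor 4 and the gain of chromosome 1 in tumor 4 were called as well, beside 18.8% of pairs lost and 6.25% gained over all chromosomes. Chromosome 3 of tumor 2 then had 74.5% of its length called, which fell short of the rule. At a threshold of 0.3 chromosome 1 of tumor 3 was still called, with 87.1% of its length, and chromosome 3 was not, with 60.9% (7.5% of all pairs were called lost). No gain of either was called at 0.3 (3.75% of all pairs). The losses in tumor 3 thus stood near the upper threshold, and the shifts in tumor 4 between the lower ones.

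The shifts ran along the whole length of the chromosomes. With the shared pattern subtracted, 0 of 192 bins of chromosome 1 and 0 of 157 bins of chromosome 3 lay above 0 in tumor 3. In tumor 4, 191 of 192 bins of chromosome 1 and 0 of 157 bins of chromosome 3 lay above 0. In tumor 2, 150 of 192 bins of chromosome 1 lay above 0 at a level of 0.037, against 0 of 157 bins of chromosome 3 at -0.11. In tumor 8, 42 of 192 bins of chromosome 1 lay above 0. The subtraction moved no chromosome level of a tumor to the other side of the 0.2 threshold.

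**Figure D2:**
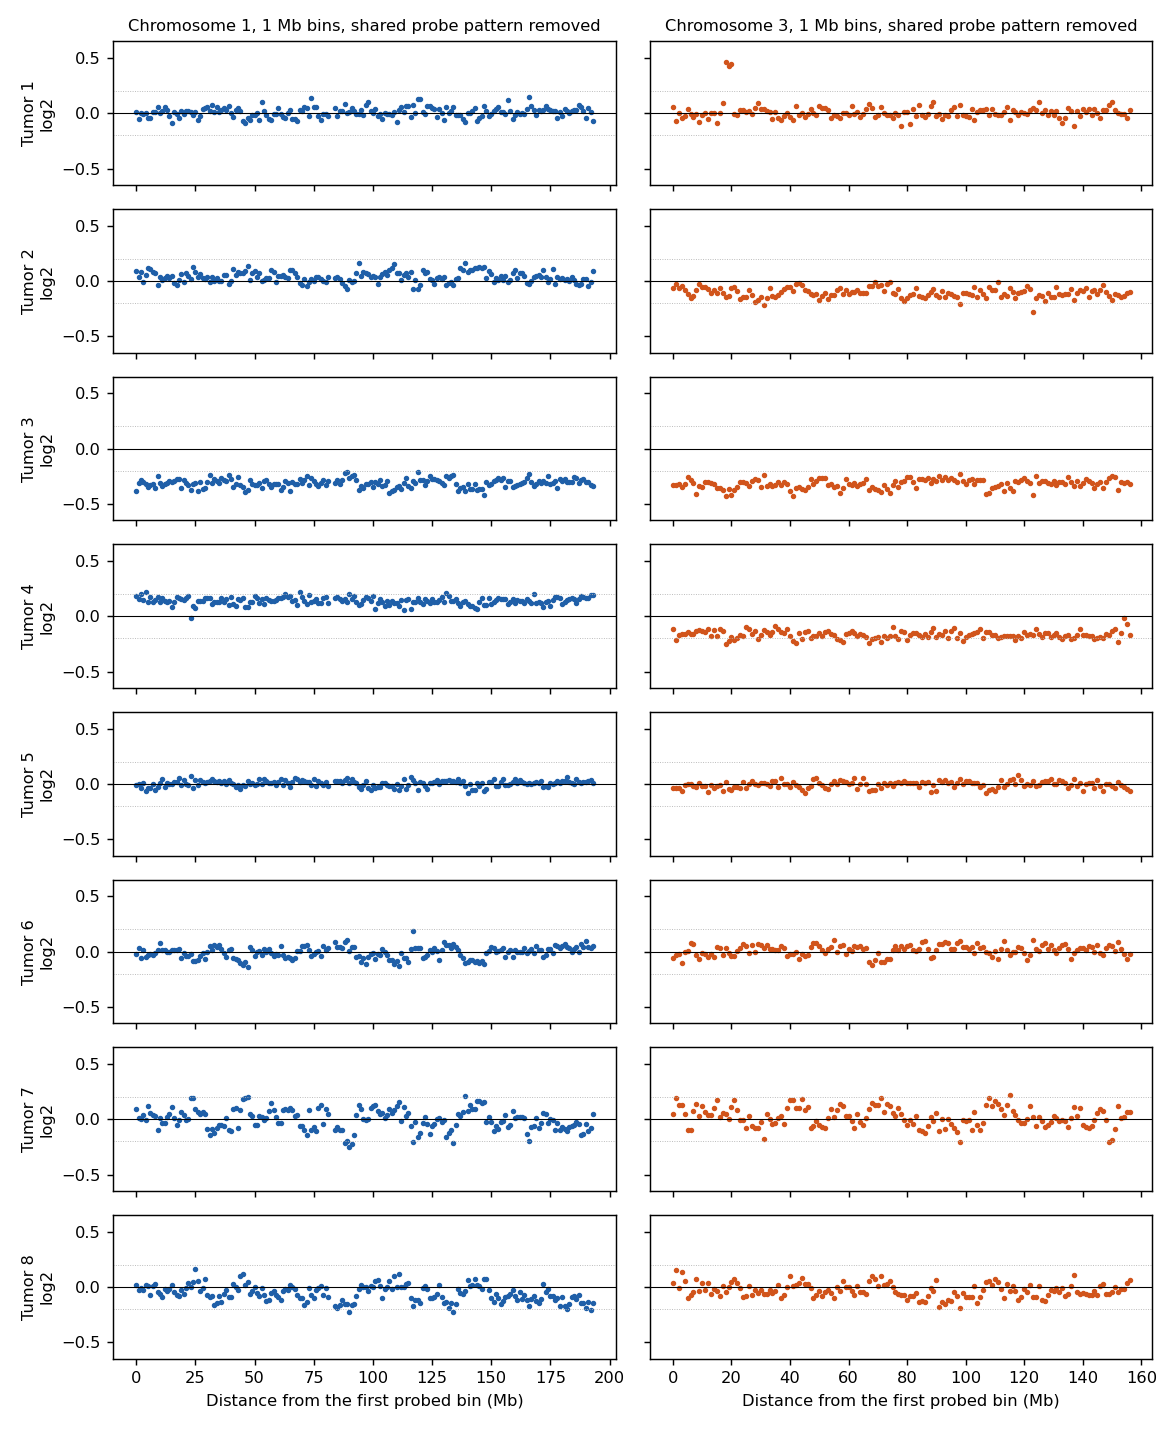
Mean log2 ratio of each 1 Mb bin along chromosome 1 (left) and chromosome 3 (right) against the distance from the first probed bin in Mb, with the shared probe pattern subtracted, in tumors 1 to 8 from top to bottom. Dotted lines mark the call threshold of 0.2; tumor 3 lies below 0 along both chromosomes, tumor 4 lies above 0 on chromosome 1 and below 0 on chromosome 3, and tumor 1 has a single short stretch near 0.44 on chromosome 3.

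Whether chromosomes 1 and 3 moved together differed from tumor to tumor. The difference between their levels does not depend on where 0 is set. Chromosome 1 minus chromosome 3 was 0.010 in tumor 1, 0.15 in tumor 2, 0.017 in tumor 3, 0.31 in tumor 4, 0.019 in tumor 5, -0.013 in tumor 6, -0.018 in tumor 7 and -0.023 in tumor 8. Tumors 2 and 4 stood apart from the other 6, whose differences ran from -0.023 to 0.019. The mean difference was 0.058 ± 0.12 (SD, n = 8) and did not pass the test (two-sided exact sign-flip permutation p = 0.289, above 0 in 5 of 8 tumors).

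In tumor 3 both chromosomes lay at nearly the same level: their difference of 0.017 is small beside the 0.17 that separated the middle pair of its 171 pairs of autosomes. In tumor 4 the difference of 0.31 was larger than that of 141 of 171 pairs, and in tumor 2 the difference of 0.15 was larger than that of 137 of 171. Tumor 3 is also where the sign of the relation across tumors comes from. Over 8 tumors Pearson's r was 0.57 (exact permutation p = 0.153, adjusted p = 0.460) and Spearman's rho was -0.024 (exact permutation p = 0.977, adjusted p = 0.977), with adjustment over 6 such values. Without tumor 3, r was -0.77 (exact permutation p = 0.0367, adjusted p = 0.220) and rho was -0.54 (exact permutation p = 0.236, adjusted p = 0.471). Without tumors 3 and 4, the tumors farthest from the median of chromosome 1, r was -0.28 (exact permutation p = 0.507, adjusted p = 0.760) and rho was -0.26 (exact permutation p = 0.658, adjusted p = 0.790). No relation across tumors was therefore established, and the value over all 8 rests on tumor 3. All levels of a tumor share its zero, and among the 171 pairs of autosomes the r of chromosomes 1 and 3 was the 22nd from the top, with a median of 0.074 and a range from -0.57 to 0.93.

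Chromosome 7 was nearest to both over the 8 tumors. The mean absolute difference in level was 0.052 between chromosomes 1 and 7 and 0.058 between chromosomes 3 and 7. For chromosome 1 the next were chromosome 18 (0.070) and chromosome 3 (0.071). For chromosome 3 the next were chromosome 19 (0.064) and chromosome 1 (0.071). Chromosome 7 lay at -0.31 in tumor 3 but at -0.000063 in tumor 4, so that it shared the loss of tumor 3 and not the opposite shifts of tumor 4. This ranking is a description, and most of its small values come from tumors in which these chromosomes lay near 0.

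The level that a change in part of the cells would give was computed for 2 starting points. Starting from 2 copies, the loss of 1 copy in every cell gives -1, in 40% of the cells -0.32 and in 20% of them -0.15. The gain of 1 copy gives 0.58 in every cell, 0.26 in 40% and 0.14 in 20%. Starting from 4 copies, the loss of 1 copy in every cell gives -0.42 and the gain of 1 copy 0.32. The measured shifts of chromosomes 1 and 3 are all smaller than a change of 1 of 4 copies in every cell, so that each of these starting points can give them.

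In tumor 3 the level of chromosome 1 corresponds to the loss of 1 of 2 copies in 38.8% of the cells, and that of chromosome 3 in 40.7%. Counted on 4 copies, the shares are 77.5% and 81.3%. The other chromosomes lost in tumor 3 gave like shares on 2 copies, 37.0% for chromosome 6, 38.2% for chromosome 7 and 34.1% for chromosome 18, and its gain of chromosome 15 gave 41.4%. The 5 lost chromosomes spanned 0.058 in level, from -0.33 to -0.27. Chromosome 14 of tumor 3 lay apart from them with a share of 23.3%, and its distal minus proximal difference was -0.30. Chromosomes 15 and 18 of tumor 3 were uneven too, with segments of at least 50 probes from -0.023 to 0.33 and from -0.32 to -0.00089. Their shares are averages over parts at different levels. In tumor 3 the losses of chromosomes 1 and 3 thus have about the depth of its other whole losses, and whether the same cells carry them was not measured.

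In tumor 4 the gain of chromosome 1 corresponds to 21.7% of the cells on 2 copies and the loss of chromosome 3 to 21.7% as well. On 4 copies the shares are 43.4% and 43.5%. The raised levels of chromosomes 2 and 16 in the same tumor gave 18.2% and 22.3% on 2 copies, and the lowered levels of chromosomes 9, 10, 14 and 19 gave 19.1%, 22.6%, 24.9% and 21.3%. The loss of chromosome 12 and the gain of chromosome 15 in tumor 4 were deeper, at 43.9% and 50.3% on 2 copies. Some of these chromosomes were uneven in tumor 4. Segments of at least 50 probes ran from 0.0067 to 0.17 on chromosome 2, from 0.023 to 0.31 on chromosome 16 and from -0.43 to -0.0098 on chromosome 12. Their shares are therefore averages over parts at different levels. Counted on 4 copies, the gain of chromosome 15 would need 100.7% of the cells, or 95.7% with the probe pattern subtracted. Chromosomes 1 and 3 thus belong to the shallower of the levels seen in tumor 4. In tumor 2 the level of chromosome 3 corresponds to 13.2% of the cells on 2 copies and 26.3% on 4, close to the 15.8%, 14.3%, 15.2% and 12.3% on 2 copies of chromosomes 4, 9, 12 and 13.

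**Figure D3:**
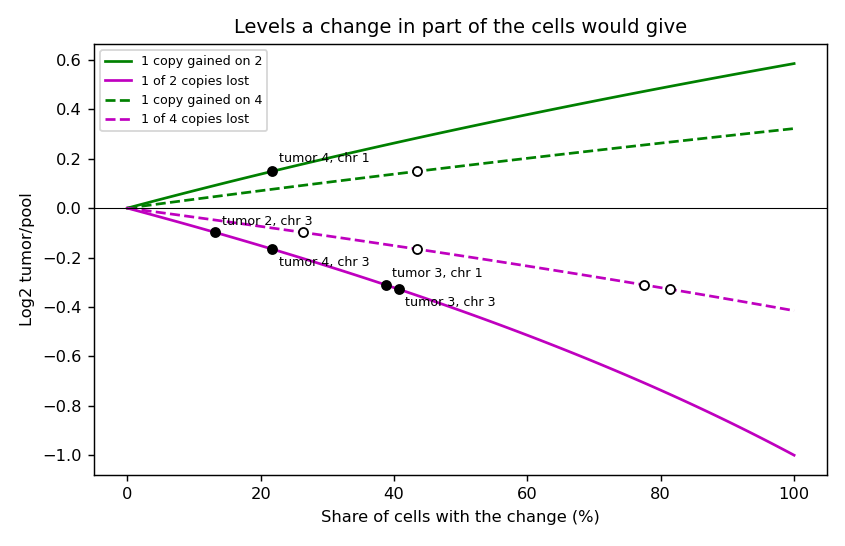
Log2 ratio of tumor over pool that a change of 1 copy in a given percentage of the cells would give, starting from 2 copies (solid lines) or 4 copies (dashed lines), with the levels of 5 chromosomes placed on the lines (filled and open points). The 2 losses of tumor 3 sit at 38.8% and 40.7% on the solid line and at 77.5% and 81.3% on the dashed line, and tumor 4 sits at 21.7% on both solid lines.

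These shares depend on where 0 lies. With each array centred on its median, tumor 3 read -0.11 and -0.13 (15.3% and 17.5% on 2 copies), and tumor 4 read 0.28 on chromosome 1 and -0.038 on chromosome 3. With the zero at the mean of chromosomes 10, 11 and 19, tumor 4 read 0.25 and -0.062 (38.3% and 8.41%), and tumor 3 read 37.4% and 39.4%. Chromosomes 10 and 19 are themselves among the lowered chromosomes of tumor 4. With the zero at the median of the autosome levels, tumor 4 read 0.16 and -0.15 (23.9% and 19.9%). Chromosome 3 of tumor 2 read 0.0059 with the array median as zero, so that its lowered level was not seen there. It read -0.13 with chromosomes 10, 11 and 19 (17.8%) and with the median of the autosome levels (16.9%). The shares in tumor 3 thus kept between 37.4% and 40.7% with every zero tried other than the array median, while in tumor 4 the separation of 0.31 between both chromosomes was the same under every zero and how it divides into a gain and a loss was not. Autosomes without a whole call at 0.1 scattered differently from tumor to tumor, and those changed in part are among them. Their SD was smallest in tumor 5, at 0.012 over 15 autosomes between -0.018 and 0.020, and in the other tumors it was 0.032 to 0.070. In tumor 7, without any whole call, 19 autosomes lay between -0.078 and 0.038. In tumor 4 the 11 uncalled autosomes lay between -0.062 and 0.15, with an SD of 0.067, and in tumor 2 the 15 uncalled ones, chromosome 3 among them, lay between -0.098 and 0.17, with an SD of 0.068. The level of chromosome 1 in tumor 4 thus lies within the range of that tumor's uncalled autosomes, and chromosome 3 of tumor 2 is the lowest of its own. The upper end of the range in tumor 4 came from chromosomes 16 (0.15) and 2 (0.13), both raised and uneven as given above. Chromosome 5 was the next, at 0.030. In tumor 2 the upper end was chromosome 15 (0.17).

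Inside the chromosomes the levels of the distal and proximal parts, split at the middle of the probed length, were compared. Distal minus proximal was -0.0034 ± 0.010 (SD, n = 8) on chromosome 1, with 0.018 as the largest size in a tumor (exact sign-flip permutation p = 0.375, adjusted p = 1). It was -0.0077 ± 0.027 (SD, n = 8) on chromosome 3, with 0.045 as the largest size in a tumor (exact sign-flip permutation p = 0.453, adjusted p = 1). No chromosome passed this test (0%), and 0 of 20 had an unadjusted p under 0.05. The differences tested here are those left after subtraction of the probe pattern, which was built from the other arrays. That subtraction largely removes a difference between the parts that the arrays share. Whether the tumors share such a difference therefore cannot be decided by this test, and no conclusion is drawn from it. With the probe pattern kept, the difference was -0.017 ± 0.0073 (SD, n = 8) on chromosome 1, below 0 in 8 of 8 tumors (exact sign-flip permutation p = 0.0078125, adjusted p = 0.0260). On chromosome 3 it was then -0.025 ± 0.021 (SD, n = 8), above 0 in 1 of 8 tumors (exact sign-flip permutation p = 0.0234, adjusted p = 0.0521). On that scale 8 of 20 chromosomes passed (40%), and a difference that all arrays share is not separated from the shared probe pattern. With the pattern subtracted, the shifts of tumors 3 and 4 came with differences between the parts of 0.027 or less in size, while the shifts themselves were 0.15 to 0.33 in size.

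Segmentation left chromosome 1 as a single segment in tumors 4 and 5. In tumor 3 its 6 segments of at least 50 probes lay between -0.36 and -0.25, and those of chromosome 3 lay between -0.42 and -0.28. In tumor 4 chromosome 3 ran at -0.17 up to position 157345969, and a segment of 78 probes at chr3:157373013-158439093 lay at 0.030 before the last 60 probes returned to -0.18. In tumor 2 chromosome 3 was divided into 8 segments, of which those of at least 50 probes lay between -0.14 and -0.038. Tumor 7 was divided most often, into 21 segments on chromosome 1 and 19 on chromosome 3. It also had the most segments over all chromosomes, 389, of which these 40 are 10.3%. In the other tumors that share was 6.67% to 14.3%, so the many segments of tumor 7 are not particular to chromosomes 1 and 3. Noise after subtraction was the highest in tumor 7 (0.22). Tumor 1, the next in noise (0.20), had 8 segments on both chromosomes together. Each array was divided by its own noise before segmentation, and a part of the noise in the number of segments was not tested. The smooth waves in tumors 2, 6, 7 and 8 were partly alike or opposite: across the 192 bins of chromosome 1, r was 0.75 between tumors 7 and 8 and -0.80 between tumors 6 and 8. These values share the probes, and the subtraction of a pattern built from the other arrays sets part of them by construction.

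In tumors in which the chromosome was not called as a whole, 10 segments reached 0.2 in size. Of 127 segments 7 were losses (5.51%, beside 11.5% over all chromosomes) and 3 were gains (2.36%, beside 3.35%). Tumor 7 held 5 of the 10. Both shares lie below those over all chromosomes, and the segments differ widely in length and size.

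The longest gain lay at chr3:20439606-24113571 in tumor 1. It covered 3.67 Mb with 143 probes at a mean log2 ratio of 0.44 ± 0.020 (SE over probes), and the probes on either side of it, up to 20393770 and from 24180913, belonged to segments at -0.016 and 0.0036. Relative to its chromosome the stretch was at 0.43 in tumor 1, -0.038 in tumor 2, -0.099 in tumor 3, -0.043 in tumor 4, -0.041 in tumor 5, -0.019 in tumor 6, 0.047 in tumor 7 and 0.036 in tumor 8. Tumor 1 alone was high, and the other 7 did not overlap with it. The stretch was called from the values of tumor 1 itself, so this is a description and not a test. With the shared pattern kept, the value relative to the chromosome was 0.48 in tumor 1 and between 0.0038 and 0.093 in the others. A gain of 1 copy on 2 in 71.3% of the cells gives this level, and the whole losses of chromosomes 4, 12 and 13 in tumor 1 gave 74.8%, 76.5% and 73.7%. On 4 copies the loss of chromosome 4 would need 149% of the cells, so that 1 lost copy of 4 does not reach the depth seen in tumor 1. It was also the single stretch of the 10 called when a z of 8 instead of 6 was needed to split.

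**Figure D4:**
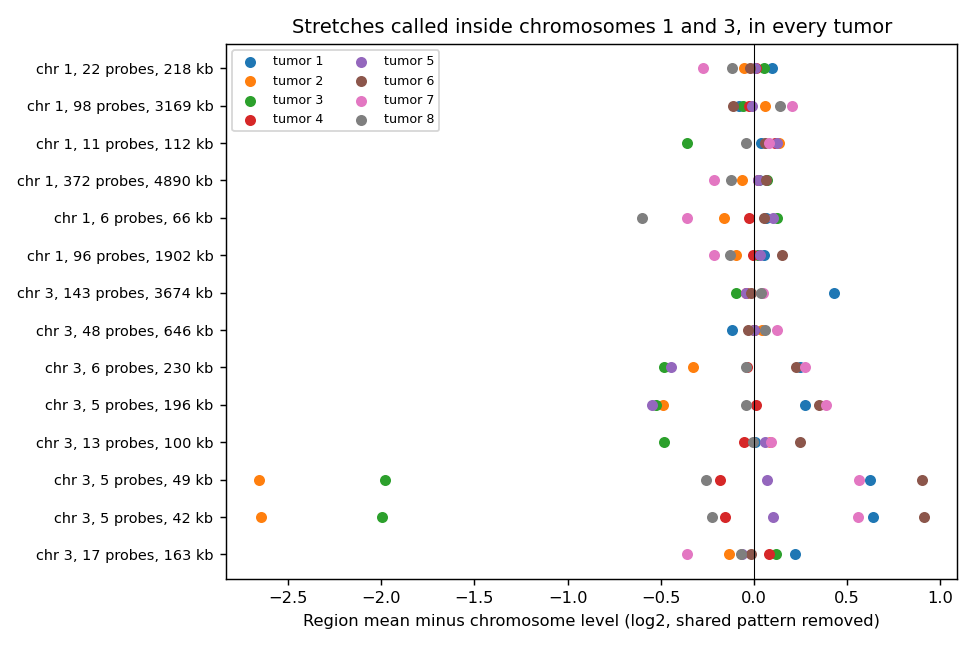
Mean log2 ratio of each named stretch of chromosomes 1 and 3 minus the level of its chromosome, shared pattern subtracted, with 1 point per tumor; rows give the chromosome, the number of probes and the length. Tumor 1 alone is high at the stretch of 143 probes (0.43), tumor 3 alone is low at the stretches of 11 and 13 probes, and tumors 2 and 3 are far below the others at the 5-probe stretches of 49 and 42 kb.

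In tumor 3 the lost chromosomes held short stretches that were deeper than the rest. At chr1:89894466-90006627, 11 probes over 112 kb had a mean of -0.67, against -0.31 in the segment before it and -0.25 in the one after. Relative to their chromosome these probes were at -0.36 in tumor 3 and between -0.042 and 0.13 in the other 7 tumors. At chr3:116341017-116441126, 13 probes over 100.1 kb had a mean of -0.80, and relative to the chromosome they were at -0.48 in tumor 3 and between -0.053 and 0.24 in the others. Tumor 3 was the lowest at both, with no overlap, which is a description, since both stretches were picked by the values of tumor 3. If both copies were missing in the share of cells that had lost 1 copy of the chromosome, 38.7% and 39.6% on this scale, the levels would be -0.71 and -0.73. The measured values of -0.67 and -0.80 lie on either side of these, and whether both copies are missing was not tested. A further stretch at -0.80 in tumor 3, chr3:110766300-110995945, was also at -0.43 in tumor 2 and -0.45 in tumor 5, where chromosome 3 was not called lost.

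Another short stretch differed between tumors in another way. At chr3:110766300-110995945, 6 probes over 230 kb were at -0.80 in tumor 3, and the stretch called in tumor 5, chr3:110878881-111075093 with 5 probes, overlaps it. With the pattern kept, the 5 probes were at -0.91 in tumor 2, -1.18 in tumor 3 and -0.88 in tumor 5, at -0.54 in tumor 4 and -0.30 in tumor 8, and at -0.17 in tumor 1, -0.049 in tumor 6 and 0.18 in tumor 7. The 3 lowest were tumors 2, 3 and 5, and tumor 7 alone was above 0. Tumor 5 was at -0.87 relative to its chromosome here, although its chromosome 3 as a whole was at -0.012.

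The deepest values of both chromosomes came from 4 neighbouring probes at chr3:126320678-126351184, a span of 30.5 kb shared by the stretches called lost in tumor 2 and gained in tumor 6. With the pattern kept, their mean was 0.38 in tumor 1, -3.67 in tumor 2, -3.02 in tumor 3, -0.65 in tumor 4, -0.31 in tumor 5, 0.65 in tumor 6, 0.46 in tumor 7 and -0.48 in tumor 8. Tumors 2 and 3 lay far below the other 6, tumors 1, 6 and 7 were above 0, and tumors 4, 5 and 8 were between. In tumors 2 and 3 only 2 of the 4 probes were well above background in the tumor channel, and the lowest tumor signal that counts as well above background would give about -3.82 and -3.32 there, so these means are near the limit of what the arrays can measure. All 4 probes were well above background in the reference channel of all arrays. The loss of both copies in 39.6% of the cells of tumor 3 would give -0.73 on chromosome 3, and the measured value was -3.02. The cause of the low values at these 4 probes was not tested. Chromosome 3 of tumor 2 as a whole lay at -0.098.

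**Figure D5:**
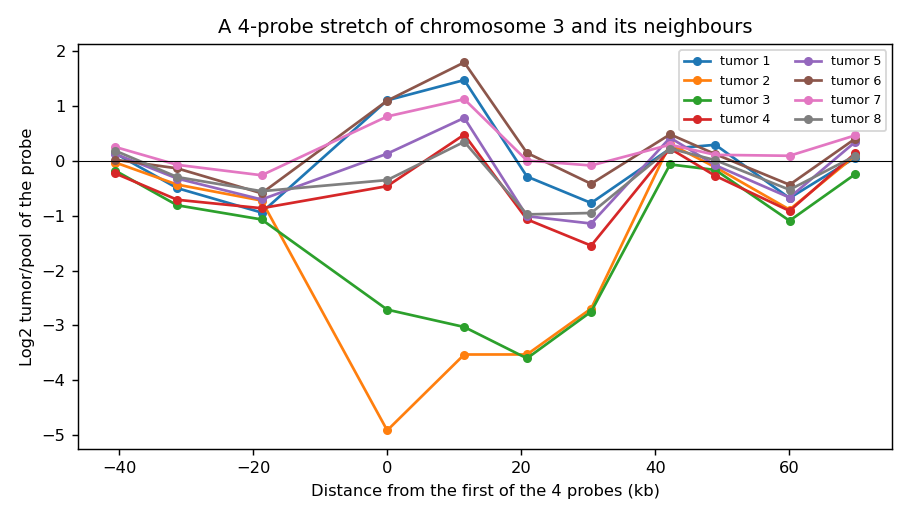
Log2 ratio of tumor over pool at single probes, pattern kept, against the distance in kb from the first of 4 neighbouring probes of chromosome 3, with 1 line per tumor. At the 4 probes tumors 2 and 3 lie between -4.91 and -2.69, while the other 6 tumors lie between -1.55 and 1.79, and all 8 lie closer together at the probes on either side.

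The remaining called segments lay in tumors 7 and 8. Tumor 7 had losses at chr1:20814578-21032137 (22 probes, -0.28), chr1:90418034-95307550 (372 probes, -0.22), chr1:119471376-121373643 (96 probes, -0.21) and chr3:138417677-138580386 (17 probes, -0.34), and a gain at chr1:47780891-50949661 (98 probes, 0.20). At each of the 4 segments of chromosome 1, tumor 8 lay on the same side of its chromosome level as tumor 7, at -0.12, -0.12, -0.13 and 0.14 relative to it. Tumor 2 did so too, by less, at -0.052, -0.063, -0.095 and 0.061. Tumor 6 was at -0.019, 0.062, 0.15 and -0.11, on the other side at all but the first. These values are with the pattern subtracted. With the pattern kept, tumor 8 was at -0.040, -0.15, -0.078 and 0.19. Tumor 2 was then at 0.087, -0.11, -0.0090 and 0.16, so on the other side at the first. Tumor 8 had a loss at chr1:90522231-90588631, with 6 probes at -0.66, inside the longer loss of tumor 7, whose own value there was -0.36. With the pattern kept, these 6 probes were at -0.36 in tumor 8, -0.068 in tumor 7 and between 0.31 and 0.66 in the other 6 tumors. The shared pattern was scaled by 0.55 in tumor 7 and 0.57 in tumor 8 before subtraction, and by 1.02 to 1.07 in the others. Tumors 7 and 8 also differ from the others in their noise and their numbers in the sample titles. A part of these differences in the segments was not tested.

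Across the tumors as a group, single 1 Mb bins were tested with limma against a log2 size of 0.1. Of the 349 bins of chromosomes 1 and 3, 0 were higher and 0 were lower after Benjamini-Hochberg adjustment over 2531 bins, beside 1 higher and 1 lower over all bins (0.0395% each). An unadjusted p under 0.05 was reached by 6 of 192 bins of chromosome 1 (3 higher, 3 lower) and 15 of 157 of chromosome 3 (all lower). Over all bins it was 303 of 2531 (106 higher, 197 lower). Both chromosomes thus had a smaller share of such bins than all chromosomes together. Counting lower bins alone, the share was somewhat larger on chromosome 3 and smaller on chromosome 1. limma's eBayes test against 0 called 6 higher (1.72% of the 349, beside 5.41% of all bins) and 27 lower (7.74%, beside 9.05%), both below the share over all bins. The median bin mean was -0.019 on chromosome 1, -0.079 on chromosome 3 and -0.047 over all bins.

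The lowest bin of both was the one from 12000001 to 13000000 of chromosome 3, with a mean of -0.34 ± 0.16 (SD, n = 8) and limma's adjusted p of 0.0906. It was below 0 in 8 of 8 tumors, from -0.65 in tumor 3 to -0.12 in tumor 7. The bins that start at 16000001 and 143000001 of chromosome 3 had means of -0.28 each, and on chromosome 1 the lowest were those that start at 92000001 (-0.26), 96000001 (-0.23) and 42000001 (-0.21), with 0 of 8 tumors above 0 at each of these 5. The highest bins of chromosome 1 started at 47000001 (0.22), 48000001 (0.20) and 69000001 (0.19). Those of chromosome 3 started at 74000001 (0.17), 4000001 (0.16) and 117000001 (0.11). In all 6 of these, 7 of 8 tumors were above 0 and tumor 3, which had lost both chromosomes, was below. These bins hold 25 to 69 probes each, and a deviation shared by all arrays is not separated here from the probe pattern that they share.

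By gene content, the loss in tumor 3 covered all 48 listed genes, since it ran along the whole of both chromosomes, and no gene was measured by itself. Growth-promoting genes (Nras, Pik3ca, Mdm4, Bcl2, Mcl1) and growth-restraining genes (Cdc73, Casp8, Fbxw7) lay on the lowered chromosomes alike. In tumor 4 the listed genes divided by chromosome: Mdm4, Bcl2, Cps1, Prox1 and the other 19 of chromosome 1 lay on the chromosome at 0.15, and Nras, Pik3ca, Fbxw7, Fga and the other 21 of chromosome 3 on the chromosome at -0.17.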

How the data were processed

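DNA of 8 tumors and 1 reference pool was measured on 8 arrays with 2 dyes. Images had been extracted by the authors using Agilent Feature Extraction 10.7.3.1, per the submitters' processing notes. The deposited processed signals are intensity values, background-subtracted and linearly dye-normalized within each array, per the file headers. The deposited log10 ratios of the series table equal those of the arrays to within 0.00498 and are not centred (column medians -0.0235 to -0.00762). Spot marks of the deposited files are 0 or 1, of the kind other, and positions are on mm9, per the file headers.

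Here the processed red signal was divided by the green one on the log2 scale for 174305 spots per array, without 115 to 221 outlier-marked spots, and averaged per probe. Saturated spots were kept. Between 97.0% and 99.9% of spots were well above background, and the median signal was 4.17 to 11.1 times the background. Zero was the kernel density peak (bandwidth 0.05) of autosomal 1 Mb bins of at least 10 probes, which lay 0.020 to 0.23 above the array median. For segments and for distal and proximal parts, the median over the other 7 arrays, after subtraction of chromosome medians, was scaled and subtracted. Recursive circular binary segmentation (z of 6, values limited to 4 noise SD, at least 5 probes) was written in Python 3.11.15 (scipy 1.17.1, numba 0.67.0, pandas 2.3.3, numpy 2.4.6) and tested on simulated data. Bins were tested with limma 3.58.1 in R 4.3.3, and plots were drawn with matplotlib 3.10.9. Shares of cells follow from the linear mixture of changed and unchanged cells.

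Named were all called segments of at least 0.2, the 5 largest steps, the 3 highest and 3 lowest bins per chromosome, the 3 nearest chromosomes, and listed genes by chromosome. Regions of at least 5 probes shared by all arrays at 0.5 or more were looked for and 0 were found. The short stretches inside the lost chromosomes of tumor 3 come from the steps or were chosen after their values were seen. The members and lists were chosen with earlier results of these data known. All columns of the series table were assigned to a sample (0 not used). Alternatives were other zeros, signals, thresholds and sets of tumors. The normexp alternative was planned on mean signals and run on median signals with an offset of 50.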

Additional observations from a re-analysis of the deposited data

Results flagged for a closer look

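Of 31 sets of 8 tumor values that were examined, 6 had 1 tumor far from the others, with a gap to the nearest tumor that takes over 0.5 of the whole range (Dixon's criterion), which chance gives in about 1 in 20 sets that were not chosen by their values. That rate does not apply to the stretches and bins below, which were named for the high or low values of some tumors, so their gaps are a description. Tumor 3 was the low one in 5 of the 6. The level of chromosome 1 was -0.311 in tumor 3, with -0.062 as the next. The stretch at chr1:89894466-90006627 lay -0.361 from its chromosome's level in tumor 3, with -0.042 as the next, and that at chr3:116341017-116441126 lay at -0.481, with -0.053 as the next. The bin from 42000001 to 43000000 of chromosome 1 was at -0.459 in tumor 3 (next -0.21), and the bin from 96000001 to 97000000 was at -0.535 (next -0.26); both lie on the chromosome that tumor 3 had lost. The stretch at chr3:20439606-24113571 lay at 0.428 above its chromosome's level in tumor 1, with 0.047 as the next.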

How the results depend on the processing

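Of the values recomputed under alternatives, 199 kept their direction and their side of the threshold, or, for counts, stayed close to the reported count; the others are given here. The array median as zero turned the mean levels to 0.11 on chromosome 1 (exact permutation, adjusted p = 0.125) and 0.057 on chromosome 3 (adjusted p = 0.368), and called 12 bins higher; these medians lie below the commonest level, so every level is raised. The mean of chromosomes 10, 11 and 19 as zero gave 1 whole gain. Medians over probes in place of bin means gave -0.12 for chromosome 1 (exact permutation, adjusted p = 0.0223) and -0.17 for chromosome 3 (adjusted p = 0.0156), against a zero that was still set on bin means. The opposite choice on the probe pattern gave -0.017 for distal minus proximal on chromosome 1 (exact permutation, adjusted p = 0.0260) and 5 called segments. A threshold of 0.1 gave 36 segments and 1 whole gain, one of 0.3 gave 1 whole loss, a z of 8 gave 1 segment and leaving out tumors 7 and 8 gave 5 segments. limma's eBayes against 0 called 6 bins higher and 27 lower, 1.72% and 7.74% of these bins beside 5.41% and 9.05% of all bins. The causes of other changes were not tested.

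Leaving out each tumor in turn gave chromosome 1 levels of -0.041 to 0.025 and chromosome 3 levels of -0.089 to -0.039, differences of 0.021 to 0.069, correlations of -0.77 to 0.88, 7 to 11 segments and 0 to 2 whole losses. Without tumor 3 the level of chromosome 1 (0.025) and the correlation (-0.77) changed sign, and 0 whole losses were left. Distal minus proximal ran from -0.0038 to -0.0020 on chromosome 1 and from -0.0081 to -0.0057 on chromosome 3, with 0 whole gains and 0 bins called throughout. The scan groups hold 4 tumors each, so a block for the scan group leaves the level means as they are. No paired analysis was possible because the tumors form 1 group. Short stretches of few probes, dim spots and changes common to all tumors are the limits of these arrays.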
